A study of Mus musculus with 2 samples.

Results

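Cytosolic ribosomal protein genes were examined in a mouse erythroid cell line, G1E-ER4. Members were the protein-coding genes whose symbols are Rpl or Rps with a number, Rpsa, or Rplp0 to Rplp2, without the S6 kinases. The rule found 81 members among 21474 protein-coding genes, in tables of 43346 gene rows. Of these, 76 were core subunits, 46 of the large and 30 of the small subunit. The other 5, Rpl10l, Rpl36al, Rpl39l, Rpl3l and Rps27l, have symbols that end in l and were kept apart as paralogs. Fau and Rack1 also encode proteins of the ribosome, but under other names, and are given only for comparison.

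Poly(A) RNA had been sequenced in paired-end mode in 2 libraries, labelled biological replicates 1 and 2 of a single group. G1E-ER4 derives from Gata1-null cells in which the erythroid factor GATA1 was restored as a fusion with the estrogen receptor's ligand-binding domain. Both cultures had received 17beta-estradiol at 10 nM over 30 h, and no untreated library was analysed here, so no value is an effect of estradiol. The cells are 1 established line and the labels do not say how far the cultures were separated, so the spread between the libraries may be technical.

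Cytosolic ribosomes are built from a small subunit, which reads the mRNA, and a large subunit, which joins amino acids and threads the new chain through an exit tunnel. Most ribosomal proteins are present once in each ribosome, and their genes are known for coordinated output, much of it set at translation through a pyrimidine tract at the start of the mRNA. Red cell precursors make globin in large amounts, and inherited loss of a copy of certain ribosomal protein genes causes Diamond-Blackfan anemia in humans.

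The gene rows summed to 73681318 expected counts, which are estimated fragment counts, in replicate 1 and to 56056404 in replicate 2. Values are given as TPM, transcript abundance per length scaled to the same total in each library. All 12 erythroid markers reached at least 1 TPM in both libraries, and together they held 273886 TPM in replicate 1 and 289406 in replicate 2, led by the globin genes Hbb-bs and Hba-a1 and with Epb42, a membrane skeleton gene, lowest at 1.5 and 1.05 TPM. The 14 markers of other blood cells summed to 4.02 and 15.7 TPM, with 5 of them at 0 in both, and the 8 non-blood markers to 0.02 and 0.05 TPM.

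Every core gene was expressed, over a wide range of levels. All 76 reached at least 1 TPM in both libraries, against 35.3% of all protein-coding genes. At least 100 TPM in both was reached by 38 of 76, against 4.32%, and at least 1000 TPM in both by 18, against 0.377%. The median core gene had 140 TPM in replicate 1 and 94.0 in replicate 2. Core genes took 9.16% and 7.25% of all TPM, from 3.86% and 2.96% of the counts.

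The mean level of the 2 libraries differed 2990-fold between the highest and the lowest core gene. The quartiles were 36.5 and 1065 TPM, 21 genes averaged over 1000 TPM and 16 averaged under 30. A few genes carried much of the RNA: the 3 highest held 39.6% of core TPM in replicate 1 and 36.7% in replicate 2, and the 10 highest held 66.3% and 69.4%. The large subunit genes together took 6.82% and 5.55% of all TPM, and the small subunit genes 2.34% and 1.70%. The median gene was nonetheless higher in the small subunit, at 394 and 179 TPM, than in the large subunit, at 98.8 and 83.9 TPM.

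Rpl28 (ENSMUSG00000030432.8, mm10 chromosome 7, 4792874 to 4795066, plus strand), a large subunit gene, had the highest level, 14555 TPM in replicate 1 and 10622 in replicate 2. Rplp1 (ENSMUSG00000007892.7, chromosome 9, 61913284 to 61914542, minus strand), an acidic protein of the stalk that recruits elongation factors, came next with 14055 and 8392 TPM. The ranges of Rpl28 and Rplp1 overlapped. Rpl18 followed with 7713 and 7574 TPM, below both Rplp1 values, and Rpl41 (chromosome 10, 128548114 to 128549305, minus strand) with 6346 and 5844. Rpl41 has the shortest coding sequence of the core genes, 78 bases, and is shown whole because such a short product stood so high in RNA (GENCODE M21):
Rpl41: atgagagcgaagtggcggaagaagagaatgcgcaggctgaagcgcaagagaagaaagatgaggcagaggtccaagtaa

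The other genes among the 10 highest included Rpl13a with 3895 TPM in replicate 1 and 5478 in replicate 2, and Rps19 with 2983 and 3423, both higher in replicate 2. They also included Rpl27a with 3571 and 2151 TPM, Rps15 with 2675 and 2243, Rpl36 with 2627 and 2164, and Rps14 with 2374 and 2383. Rps19 is the gene most often mutated in Diamond-Blackfan anemia, and RPS14 is linked to the anemia of the human 5q- syndrome. Both stood among the 10 highest gene totals, although most Rps19 TPM lay on a transcript not annotated as protein-coding, as described with the transcripts.

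At the low end, Rpl29 (ENSMUSG00000048758.9, chromosome 9, 106429454 to 106431568, plus strand) had 3.67 TPM in replicate 1 and 4.75 in replicate 2. Rps15a (ENSMUSG00000008683.12, chromosome 7, 118104372 to 118116188, minus strand) reached 9.99 and 4.07 TPM, Rpl30 11.1 and 7.63, and Rpl9 13.7 and 8.26. The remaining 4 of the 8 lowest were Rpl5 with 17.6 and 12.5 TPM, Rps27 with 14.5 and 16.7, Rpl37 with 18.0 and 13.2, and Rpl3, which lies near the peptidyl transferase centre, with 22.7 and 14.8. The ranges of these last 4 overlapped one another. The value of Rpl29 does not stand alone, since near-identical copies of it held most of the family's counts, as described with the copies.

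**Figure D1:**
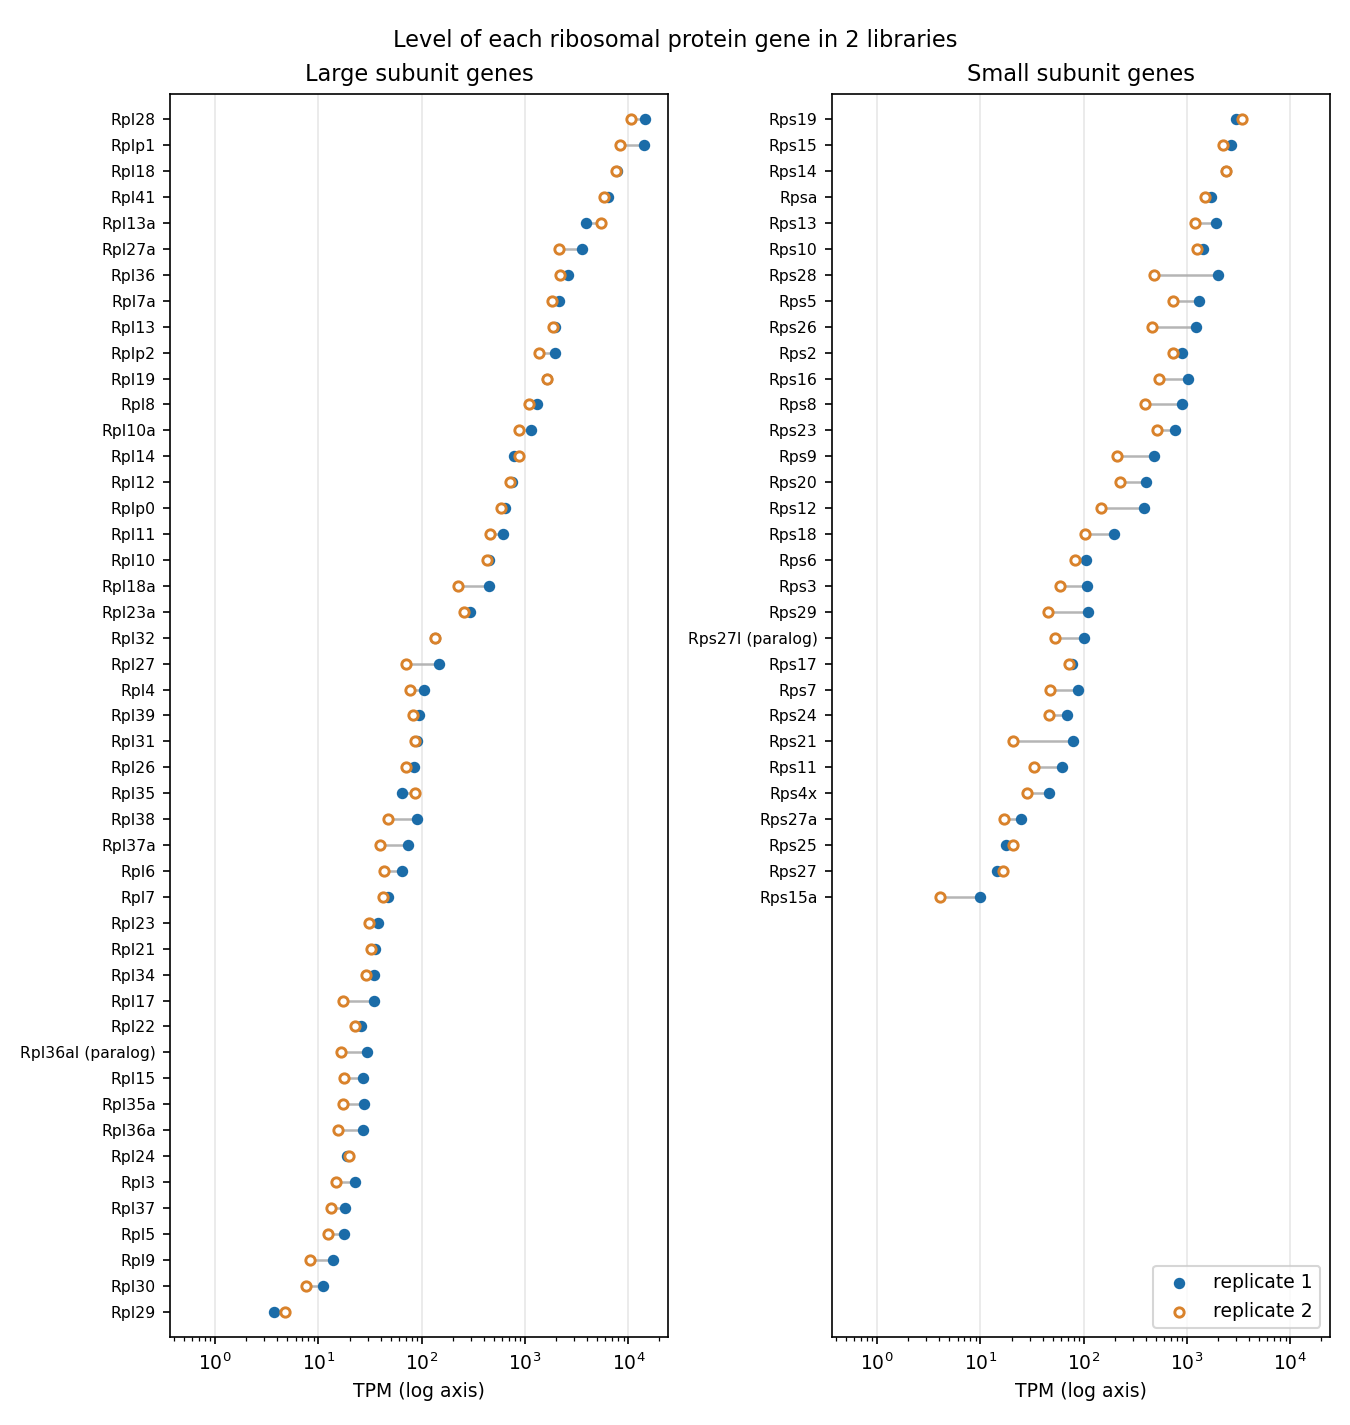
TPM on a log axis for each core gene and for the paralogs Rps27l and Rpl36al, by subunit, with the 2 libraries as separate points. The 3 paralogs at or below 0.10 TPM are not drawn, and mean levels run from 4.21 TPM for Rpl29 to 12588 TPM for Rpl28.

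The broad order of levels was shared, with a Spearman rho of 0.980 between the libraries over the 76 genes, which share gene models and estimation. The fine order was not. Of 75 pairs of neighbours in the order of mean TPM, the gene with the higher mean was higher in both libraries in 22, and in 6 both of its values lay above both values of the next gene. Those 6 were Rplp1 over Rpl18, Rpl18 over Rpl41, Rpl41 over Rpl13a, Rpl13a over Rps19, Rps14 over Rpl7a and Rpl11 over Rpl10. In the other 69 neighbouring pairs the ranges of the genes overlapped, also where the order was the same in both libraries.

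Genes whose proteins sit together in the ribosome had unlike levels. In the stalk, Rplp0, the base that binds rRNA, had 635 TPM in replicate 1 and 579 in replicate 2. Rplp2, which pairs with Rplp1 on that base, had 1936 and 1378 TPM. Rplp1 exceeded Rplp2 by 7.26-fold in replicate 1 and 6.09-fold in replicate 2, and exceeded Rplp0 by 22.1-fold and 14.5-fold. These are ratios of gene totals, not of protein-coding forms. Transcripts annotated as protein-coding held 100% of Rplp1 TPM in both libraries. They held 25.9% and 24.5% of Rplp2 TPM, and 14.5% and 20.7% of Rplp0 TPM. The gap to Rplp0 rests on how fragments were split between Rplp0 and its copies: with near-identical copies added it was 7.66-fold and 6.38-fold, and the Rplp0 family, with 1837 and 1322 TPM, stood close to the Rplp2 family, with 1937 and 1380.

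Rpl5 and Rpl11 form a complex with 5S rRNA, which outside the ribosome binds Mdm2, the ubiquitin ligase of p53. Rpl11 had 616 TPM in replicate 1 and 462 in replicate 2, so it stood 34.9-fold and 37.1-fold above Rpl5. With near-identical copies added, the Rpl11 family had 627 and 471 TPM and the Rpl5 family 39.4 and 33.0, a ratio of 15.9 and 14.3.

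Of the 3 genes whose proteins line the exit tunnel, Rpl4 had 104 TPM in replicate 1 and 76.1 in replicate 2, Rpl39 93.4 and 82.5, and Rpl17 34.6 and 17.1. Of 7 genes listed for the tunnel exit, Rpl19 was the highest with 1636 and 1643 TPM. Rpl23a, beside the site where the signal recognition particle binds, had 293 and 257 TPM. Rpl24 was lowest of the list with 18.9 and 19.7, but its protein does not sit at the tunnel exit. Without Rpl24, the lowest was Rpl22. This order did not hold with copies added, when the Rpl23a family was highest with 2231 and 1736 TPM and Rpl22 lowest with 25.8 and 22.5. In scaled counts none of these 7 was 1.5-fold apart between the libraries on its own, against 11 of 46 large subunit genes. Over all genes tested the share was 16.0%. With their copies 2 were so, Rpl35 and Rpl24, against 12 of 46 large subunit genes. The list is too short for a result. On the entry and decoding side of the small subunit, Rps15 led 4 genes, ahead of Rps2 with 889 and 732 TPM, and Rps3 was lowest with 109 and 58.4.

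On the mRNA exit side of the small subunit, Rps14 led 5 genes, ahead of Rps28 with 2007 TPM in replicate 1 and 482 in replicate 2, and Rps7 was lowest with 88.6 and 47.6. Rps27a and Fau encode fusions with ubiquitin or a ubiquitin-like protein, which release a ribosomal protein when cut, and their levels lay far apart. Rps27a had 24.6 and 16.8 TPM, and Fau 2903 and 2889. Fau was at the level of the 10 highest core genes, whereas Rps27a was among the 16 core genes under 30 TPM.

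The 4 X-linked core genes stood in 1 order in both libraries. Rpl10, which completes the large subunit late in its assembly, had 451 TPM in replicate 1 and 425 in replicate 2. Rpl39 followed, then Rps4x with 46.4 and 28.1 TPM, then Rpl36a with 27.1 and 15.3.

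The 19 listed genes that are mutated in Diamond-Blackfan anemia had a median of 88.6 TPM in replicate 1 and 70.8 in replicate 2, against 140 and 94.0 TPM over all core genes. At least 100 TPM in both libraries was reached by 6 of 19, against 38 of 76. The 5 highest were Rpl18, Rps19, Rps10 with 1434 and 1237 TPM, Rps28, and Rps26 with 1235 and 456. The 3 lowest were Rps27, Rpl5 and Rps15a, so the list held genes from both ends of the range.

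Start sites were taken from RefSeq (GRCm38.p6) as windows of 300 bases, 250 before the start and 50 from it, and were matched for 56 of the 76 core genes. A start at C that opens a run of at least 5 pyrimidines, read on the gene's strand, is the mark of a TOP mRNA, the class whose translation depends on mTOR. It was found in 13 of 56 core genes (23.2%) and in 2.73% of 16317 protein-coding genes. To show that the mark stood at both ends of the range, 30 bases are given for the 4 highest and the 4 lowest of those 13, with 15 bases before the start and the pyrimidine run in capitals:
Rpl28, chr7:4792950-4792979, plus strand: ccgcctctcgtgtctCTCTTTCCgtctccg
Rplp2, chr7:141447636-141447665, plus strand: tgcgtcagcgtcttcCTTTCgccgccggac
Rps10, chr17:27635230-27635259, minus strand: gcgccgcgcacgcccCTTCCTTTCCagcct
Rpl14, chr9:120571502-120571531, plus strand: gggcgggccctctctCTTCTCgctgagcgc
Rpl15, chr14:18270972-18271001, minus strand: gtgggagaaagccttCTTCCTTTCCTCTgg
Rpl35a, chr16:33056467-33056496, plus strand: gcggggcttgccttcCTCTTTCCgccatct
Rps27, chr3:90213634-90213663, minus strand: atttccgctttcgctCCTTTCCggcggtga
Rps15a, chr7:118116133-118116162, minus strand: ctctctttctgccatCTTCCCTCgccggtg

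Rpl28 averaged 12588 TPM and Rps15a 7.03 TPM, each with a run of 8 bases. The longest run, 13 bases, was in Rpl15, at 22.3 TPM on average. The mark was in 5 of 28 matched core genes above the median level and in 8 of 28 at or below it. A match describes the annotated start, which may differ from the base that these cells use.

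The motif CCGGAAG, which ETS family factors can bind, was found on either strand in 23 of 56 core windows (41.1%), against 13.5% of all protein-coding windows of the same length. AAGATGGCG, a Yy1 motif, was in 3 of 56 (5.36%) against 2.27%, and it can overlap the ETS motif by its first 3 letters. The TATA box letters TATAAA were in 6 of 56 (10.7%) against 14.1%. A GATA factor motif, AGATAA, was in 4 of 56 (7.14%) against 10.9%. The counts for the Yy1, TATA and GATA motifs are too small for a result. These matches describe letters in the windows only.

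Level followed base composition. Transcript GC content, the mean over a gene's annotated transcripts, had a Spearman rho of 0.57 with mean TPM over the 76 core genes, against 0.30 over 7570 protein-coding genes that reached 1 TPM in each library. For the GC content of the coding sequence alone, rho over the core genes was 0.67. The 14 core genes under 48% GC had a median of 23.5 TPM, against 8.28 TPM for all expressed genes of that range. The 21 core genes at 54% or more had a median of 1900 TPM, against 28.4 TPM, and 18 of them averaged at least 100 TPM. All genes share the libraries and their preparation, and the part of GC bias in these levels was not tested. When TPM was adjusted by the medians of genes of like GC content, the median core gene had 172 TPM, against 117 before, and 7 of the 10 highest genes were shared.

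**Figure D2:**
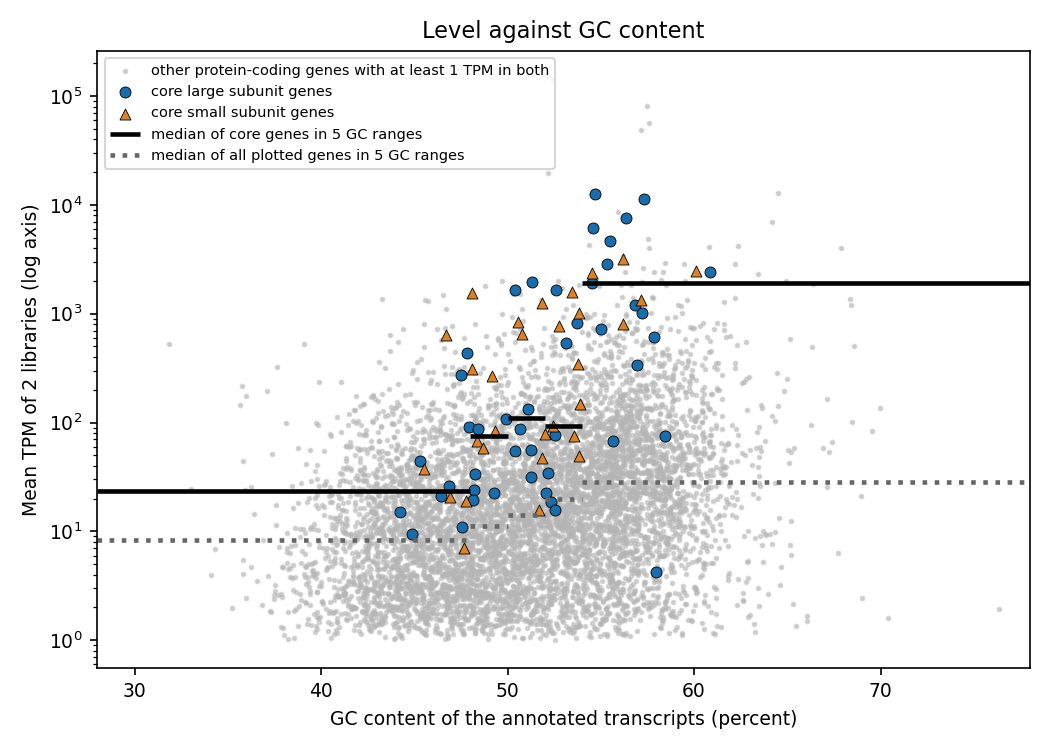
Mean TPM of the 2 libraries on a log axis against transcript GC content in percent, for core genes and, in grey, other protein-coding genes that reached 1 TPM in each library. Bars are medians by GC range, and in the range from 54% they stand at 1900 TPM for core genes and 28.4 TPM for all expressed genes.

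The spans of 29 core genes hold annotated snoRNA genes, whose small RNAs guide the modification of other RNAs, chiefly rRNA. These 29 had a median of 387 TPM in replicate 1 and 223 in replicate 2, and the 47 without one had 106 and 81.8 TPM. In replicate 1 the hosts ranged from 11.1 to 3895 TPM and the others from 3.67 to 14555, so the groups overlapped.

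The 5 paralogs together held 0.140% of ribosomal protein TPM in replicate 1 and 0.0952% in replicate 2, nearly all of it from Rps27l and Rpl36al. Rps27l (ENSMUSG00000036781.9, chromosome 9, 66946086 to 66949516, plus strand), a p53 target in human cells, had 99.6 and 52.4 TPM. Its parent Rps27 (ENSMUSG00000090733.2, chromosome 3, 90212522 to 90213651, minus strand) reached 14.5 and 16.7 TPM, so the paralog stood 6.87-fold higher in replicate 1 and 3.14-fold higher in replicate 2. Both Rps27l values lay above both Rps27 values. The coding sequences are equally long and differ at 61 of 255 bases (76.1% identity), shown in capitals because they are what tells the genes apart (GENCODE M21):
Rps27l: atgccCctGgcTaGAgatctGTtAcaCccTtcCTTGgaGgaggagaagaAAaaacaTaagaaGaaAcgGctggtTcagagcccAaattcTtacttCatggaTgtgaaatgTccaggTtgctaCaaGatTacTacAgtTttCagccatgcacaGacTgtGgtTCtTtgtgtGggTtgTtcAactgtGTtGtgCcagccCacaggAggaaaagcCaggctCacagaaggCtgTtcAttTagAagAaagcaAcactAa
Rps27: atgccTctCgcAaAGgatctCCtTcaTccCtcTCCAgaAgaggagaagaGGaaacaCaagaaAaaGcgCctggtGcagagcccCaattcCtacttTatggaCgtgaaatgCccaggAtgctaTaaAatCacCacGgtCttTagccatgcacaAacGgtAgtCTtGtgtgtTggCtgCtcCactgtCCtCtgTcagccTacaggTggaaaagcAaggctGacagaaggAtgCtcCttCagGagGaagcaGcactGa

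The Rps27 level also rests on its gene model. Its only transcript in the deposited tables has 255 bases, the length of the coding sequence, whereas GENCODE M21 gives 345 bases, and its effective length in replicate 1 was 100 bases. In counts, not divided by length, the paralog exceeded the parent by 23.7-fold in replicate 1 and 12.3-fold in replicate 2, with 2563 and 984 counts for Rps27l and 108 and 80 for Rps27.

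Rpl36al (ENSMUSG00000049751.6, chromosome 12, 69182731 to 69184083, minus strand) reached 29.3 TPM in replicate 1 and 16.4 in replicate 2, close to its X-linked parent Rpl36a (chromosome X, 134585654 to 134588062, plus strand). The ratio of paralog to parent was 1.08 and 1.07, and the ranges of the genes overlapped. The coding sequences differ at 39 of 321 bases (87.9% identity). The first 180 bases hold 30 of the differences, in capitals, and are shown because stretches without one cannot separate the genes:
Rpl36al: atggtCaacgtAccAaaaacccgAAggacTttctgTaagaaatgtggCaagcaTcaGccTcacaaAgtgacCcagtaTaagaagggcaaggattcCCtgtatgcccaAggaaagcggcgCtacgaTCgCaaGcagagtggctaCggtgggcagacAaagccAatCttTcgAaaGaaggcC
Rpl36a: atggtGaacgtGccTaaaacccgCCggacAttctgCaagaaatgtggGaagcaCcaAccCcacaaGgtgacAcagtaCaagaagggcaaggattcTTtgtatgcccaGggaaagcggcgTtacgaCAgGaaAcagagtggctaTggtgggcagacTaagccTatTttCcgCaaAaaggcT

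The 3 paralogs known from other tissues were at or near 0. Rpl39l (ENSMUSG00000039209.8, chromosome 16, 10170226 to 10174911, plus strand), expressed in male germ cells in mouse, had no count in either library. A floor of 3 counts puts its level below 0.0407 CPM in replicate 1 and 0.0535 CPM in replicate 2, where CPM is the count scaled to library size. The parent Rpl39 (chromosome X, 37082520 to 37085402, minus strand), at 93.4 and 82.5 TPM, differs from it at 23 of 156 bases (85.3% identity), in capitals here so that the separation can be seen:
Rpl39l: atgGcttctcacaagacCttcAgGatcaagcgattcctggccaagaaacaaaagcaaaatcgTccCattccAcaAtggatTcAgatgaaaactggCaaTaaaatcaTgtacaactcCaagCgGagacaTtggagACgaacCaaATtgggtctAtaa
Rpl39: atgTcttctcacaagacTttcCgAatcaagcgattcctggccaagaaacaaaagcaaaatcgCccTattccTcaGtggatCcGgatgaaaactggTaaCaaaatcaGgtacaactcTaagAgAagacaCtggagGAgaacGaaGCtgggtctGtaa

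Rpl3l (chromosome 17, 24727820 to 24736143, plus strand), the heart and skeletal muscle form of Rpl3, had 4 counts in replicate 1 and 6 in replicate 2, against 1999 and 898 for Rpl3. Rpl10l (chromosome 12, 66283379 to 66284401, minus strand), which stands in for the X-linked Rpl10 in male meiosis in mouse, had 0 and 5 counts, against 17064 and 11911 for Rpl10. Outside the symbol rule, Rpl22l1 had 4.50 and 2.47 TPM, below Rpl22 with 25.8 and 22.5. Rpl7l1 had 1.42 and 0.75 TPM, below Rpl7 with 46.9 and 42.1, and Rpl9-ps6 was lowest of the genes outside the rule with 0.18 and 0.30.

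Most core genes have near-identical copies in other annotated genes, between which counts can be split. A copy was a gene whose transcript matched at least 80% of a member's coding sequence at 95% identity or more. Not every copy lies elsewhere in the genome: Gm28037 and Gm45713, the leading copies of Rpl24 and Rpl13a, overlap the member's own locus. The leading copy of Rpl21, BC004004, is a protein-coding gene of 2451 bases, so its counts need not come from the matched stretch. Of 76 core genes 69 had at least 1, and the 422 copies, 406 of them annotated as pseudogenes, summed to 6760 TPM in replicate 1 and 6604 in replicate 2. For 31 core genes the copies held under 1% of the family's counts in both libraries. For 17 they held over 10% in both, and for 4, Rpl29, Rpl23a, Rplp0 and Rpl5, over 50% in both.

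Rpl29 was the extreme. The gene itself had 156 counts in replicate 1 and 148 in replicate 2, whereas its 21 copies had 31491 and 24653, or 99.5% and 99.4% of the family. The leading copy, the processed pseudogene Gm13841 (chromosome 5, 115801677 to 115802159, minus strand), had 639 and 678 TPM. It differs from the coding sequence of Rpl29 at 3 of 483 bases, C72A, C300T and T423C, with the Rpl29 base first and positions counted from 1 at the A of the start codon. Each is shown in capitals with 20 bases on either side, because outside them the genes cannot be told apart over the coding sequence (GENCODE M21):
Rpl29 around position 72: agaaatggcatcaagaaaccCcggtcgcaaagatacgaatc
Gm13841 around position 72: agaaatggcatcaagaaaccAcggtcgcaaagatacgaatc
Rpl29 around position 300: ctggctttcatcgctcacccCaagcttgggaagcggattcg
Gm13841 around position 300: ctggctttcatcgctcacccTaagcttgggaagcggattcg
Rpl29 around position 423: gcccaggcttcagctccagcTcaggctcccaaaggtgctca
Gm13841 around position 423: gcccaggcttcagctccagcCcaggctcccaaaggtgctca

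With its copies added, Rpl29 had 1289 TPM in replicate 1 and 1379 in replicate 2 and stood at rank 20 of the core genes, against rank 76 without them. The tables do not tell from which locus the RNA came. Rpl23a had 293 and 257 TPM, while its copies had 1938 and 1479, led by Gm10335 on chromosome 10. Rplp0, a common reference gene in expression work, had 635 and 579 TPM, while its copies had 1202 and 744, led by Gm8730 on chromosome 8.

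For Rpl41 the copies held 4.61% of the family's counts in replicate 1 and 14.2% in replicate 2, with Gm10076 at 395 and 1235 TPM. Adding every copy to its member left the same 10 genes at the top and 5 of the same 8 at the bottom, where Rps15a was then lowest. The range of levels was 1422-fold with copies, against 2990-fold without them and 4838-fold after GC adjustment, and the median core gene had 210 TPM with copies.

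**Figure D3:**
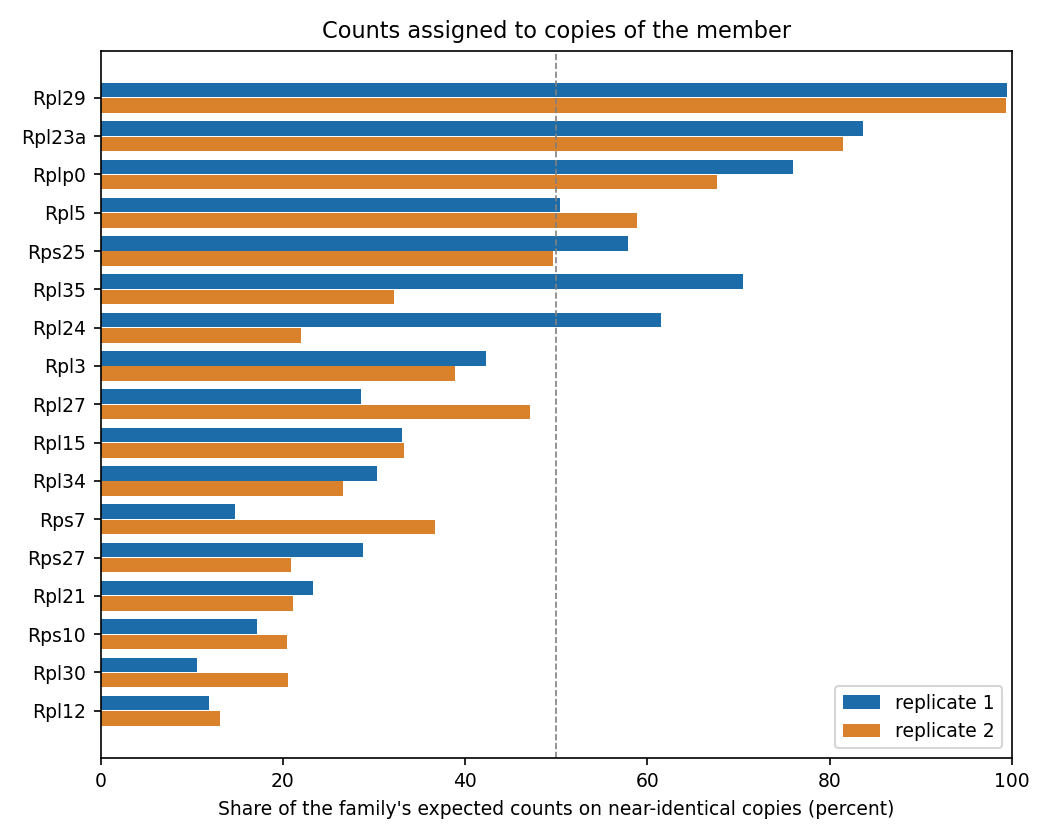
Share of the family's expected counts, in percent, assigned to near-identical copies and not to the member, in each library. The 17 core genes over 10% in both libraries are drawn, with Rpl29 at 99.5% and 99.4%. The leading copy of Rpl24 overlaps the Rpl24 locus, and that of Rpl21 is a longer protein-coding gene.

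Within genes, much RNA was assigned to transcripts that GENCODE M21 does not list as protein-coding. The leading transcript was the same in both libraries for 72 of 76 core genes. It was protein-coding for 61, a retained intron form for 8, a processed transcript for 5, and without a match in M21 for 2. Protein-coding transcripts held 74.8% of core TPM in replicate 1 and 71.6% in replicate 2. They held over 95% of a gene's TPM in both libraries for 49 core genes and under 50% in both for 13, among them 4 of the 10 highest genes.

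Those 4 were Rpl13a with 1.33% of its TPM on protein-coding transcripts in replicate 1 and 1.24% in replicate 2, Rps19 with 6.28% and 7.11%, Rpl18 with 16.3% and 24.8%, and Rpl27a with 25.2% and 36.9%. In Rps19 the leading transcript, a retained intron form of 395 bases, held 93.4% and 92.7%. The leading transcripts of Rpl13a and Rpl18 are the 2 without a match, so their type is not known here. The split among overlapping transcripts is the authors' estimate, and short forms gain TPM per fragment over longer ones.

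Transcript length also bore on the highest values. Of Rpl28 TPM, 96.3% in replicate 1 and 95.6% in replicate 2 lay on a protein-coding transcript of 312 bases, and the effective length of the gene, the number of positions where a fragment can start, was 170 and 155 bases. With counts divided by full length, Rplp1 was highest with 12236 and 7147 TPM, ahead of Rpl28 with 9647 and 6566, and 9 of the 10 highest genes were shared. Rps20 was a case of the opposite kind, with 103695 and 42525 counts but 401 and 223 TPM, its leading transcript being 3706 bases long.

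**Figure D4:**
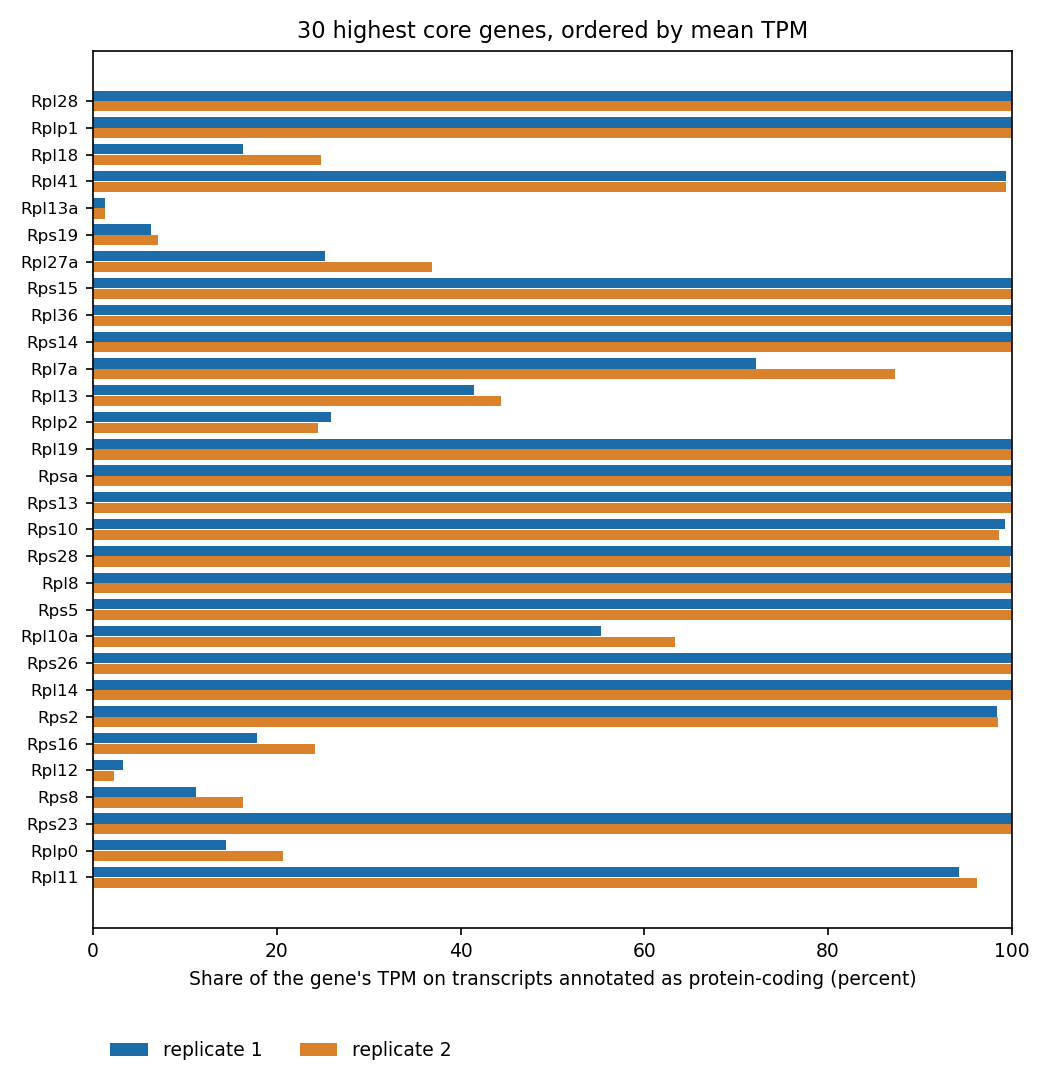
Share of each gene's TPM, in percent, on transcripts annotated as protein-coding, for the 30 highest core genes in each library. Of the 30, 10 are under 50% in both libraries, with Rpl13a at 1.33% and 1.24%.

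Core genes were shifted toward replicate 1. Counts of each gene were set against the ratio of TMM-scaled totals with the binomial test (exact, two-sided), adjusted by Benjamini-Hochberg over 10445 genes at a threshold of 0.05. The test compares the reads of these libraries and covers counting error only. Of 76 core genes, 63 were higher in replicate 1 and 8 higher in replicate 2, against 30.4% and 28.9% of all genes tested. Protein-coding genes at 10 TPM or more in each library had 32.0% and 46.3%. The median log2 ratio of replicate 1 over replicate 2 was 0.40 over the core genes and 0.02 over all genes tested.

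At least 1.5-fold apart were 29 of 76 core genes, against 16.0% of all genes tested and 5.72% of protein-coding genes at 10 TPM or more. All 29 were higher in replicate 1, against 11.0% and 3.89% in that direction. The subunits differed in count: 18 of 30 small subunit genes and 11 of 46 large subunit genes were past 1.5-fold, with median log2 ratios of 0.74 and 0.28. That difference between the subunits was not tested.

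Rps28 (ENSMUSG00000067288.8, chromosome 17, 33819027 to 33824562, minus strand), beside the mRNA exit channel, differed most. It had 41907 counts in replicate 1 and 7112 in replicate 2, a log2 ratio of 2.11, with an adjusted p by the binomial test below the smallest number the software can hold. Rps21 (chromosome 2, 180257377 to 180258445, plus strand) had 1403 and 265 counts, a log2 ratio of 1.95 (exact binomial test, adjusted p = 7.04e-117). The next were Rps26 with a log2 ratio of 1.45, Rps12 with 1.39 and Rps29 with 1.34. All 5 are small subunit genes, and Rps28, Rps26 and Rps29 are on the Diamond-Blackfan list. Of its 19 genes 8 were past 1.5-fold, near the 29 of 76 over all core genes, so this is no result about the list. On the mRNA exit side, 4 of 5 genes, Rps28 included, were past 1.5-fold, against 18 of 30 small subunit genes, which is too short a list for a result. With copies added, the Diamond-Blackfan count was 7 and the exit side count 3, against 28 of 76 core and 16 of 30 small subunit genes. Rps7 then fell short with a log2 ratio of 0.43 and Rpl27 with 0.42, while Rpl35 passed. Of the large subunit genes, Rplp1 had a log2 ratio of 0.75, from 356157 and 155239 counts.

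In the other direction the differences were smaller. The log2 ratio was -0.38 for Rpl29 (exact binomial test, adjusted p = 0.0406), -0.33 for Rpl35, -0.32 for Rpl13a, -0.24 for Rps25 and -0.20 for Rpl14. The Rpl29 value rests on 156 and 148 counts, and with its copies the log2 ratio was -0.10. Rpl35 and Rps25 did not keep that sign when their copies were counted with them. The Rpl35 family had 7677 counts in replicate 1 and 3064 in replicate 2, a log2 ratio of 0.87 (exact binomial test, adjusted p = 5.29e-188), with 5408 and 984 counts on the copy Gm2000. The Rps25 family had a log2 ratio of 0.02 (exact binomial test, adjusted p = 0.760). Rpl24 also turned, to 0.93 with its copies against -0.09 without them, through Gm28037, which overlaps the Rpl24 locus.

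**Figure D5:**
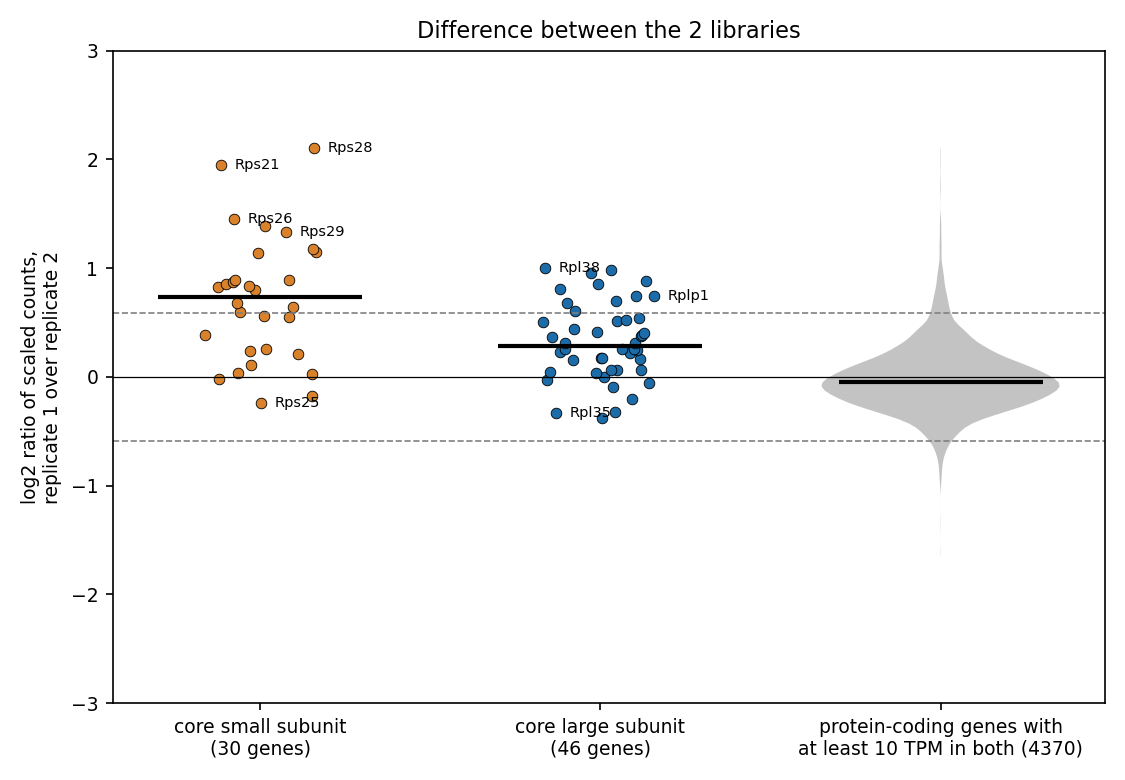
Log2 ratio of TMM-scaled counts, replicate 1 over replicate 2, for core small subunit genes, core large subunit genes and, as a density, 4370 protein-coding genes at 10 TPM or more in each library. Each point is a gene, bars are medians and dashed lines mark 1.5-fold, with the small subunit median at 0.74 and the large subunit median at 0.28.

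Over the 76 core genes the log2 ratio had a Spearman rho of 0.02 with transcript length and -0.25 with GC content, against -0.13 and -0.19 over the 7570 expressed protein-coding genes. Markers of other blood cells also differed between the libraries. The neutrophil granule genes Mpo, Prtn3 and Elane had 0.19, 0.08 and 0.04 TPM in replicate 1 and 3.96, 3.76 and 3.04 TPM in replicate 2, while the platelet lineage gene Itga2b had 3.25 and 3.98. The whole list of 14 summed to 4.02 TPM in replicate 1 and 15.7 in replicate 2, and S100a8, Lyz1, Cpa3, Cd3g and Clec1b were at 0 in both. Their part in the shift of the ribosomal protein genes was not tested. In bulk RNA, fewer cells of a type and less RNA per cell cannot be told apart.

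Other TOP mRNAs, which encode translation factors and related proteins, were mostly higher in replicate 1 as well. Of 15 genes, 12 were higher in replicate 1 and 1 in replicate 2 by the binomial test, against 30.4% and 28.9% of all genes tested. Protein-coding genes at 10 TPM or more in each library had 32.0% and 46.3%. The median log2 ratio of the 15 was 0.29. Only Eef1b2 was past 1.5-fold, against 16.0% of all genes tested and 5.72% of protein-coding genes at 10 TPM or more. That count is no result about the list. Tpt1 had 2090 and 1891 TPM and Pabpc1, the poly(A) binding protein, 1538 and 1439, and Eif3e was lowest with 4.31 and 3.26. Of 10 regulators of TOP translation, 2 were higher in replicate 1 and 5 in replicate 2. All genes tested had 30.4% and 28.9%, and protein-coding genes at 10 TPM or more 32.0% and 46.3%. So short a list gives no result, and 8 of the 10 reached 10 TPM in both libraries. The median log2 ratio of the 10 was -0.07. Eif4ebp1, an mTOR target, led them with 344 and 394 TPM, then Larp1, which binds TOP mRNAs, with 140 and 147. Tsc1, an inhibitor of mTOR signalling, was lowest with 6.0 and 4.85.

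Of 8 chaperones and import factors of ribosomal proteins, 4 were higher in replicate 1 and 3 in replicate 2, against 30.4% and 28.9% of all genes tested, which is no result about so short a list. Bccip had 122 TPM in replicate 1 and 109 in replicate 2. Pdcd2, a chaperone of Rps2, had 31.0 and 51.1 TPM, a log2 ratio of -0.68 (exact binomial test, adjusted p = 3.55e-62). It was the only gene of the list past 1.5-fold, against 16.0% of all genes tested, which is no result about the list. Tsr2, the chaperone of Rps26, was lowest with 2.36 and 1.06 TPM. Of the ribosomal proteins with other names, Rack1, on the small subunit, had 275 and 97.1 TPM, a log2 ratio of 1.27, and Fau had a log2 ratio of -0.01 (exact binomial test, adjusted p = 0.542).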

How the data were processed

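Poly(A) RNA was measured in 2 libraries of 1 group. Per the deposited description files, values refer to mm10 and GENCODE M4. The sources used here do not give an aligner or quantifier. The authors deposited expected counts (estimated, not whole), TPM, FPKM, posterior mean counts and TPM, and the percent of a gene's TPM on each transcript, per the file headers. Total expected counts were 73681318 and 56056404. Of 69691 rows, 26345 that name no mouse gene were left out, holding 5 and 4 counts. Names, types, coordinates, GC content and coding sequences came from GENCODE M21 on GRCm38, the same assembly, whose models can differ from M4. It matched 42462 of 43346 gene rows, and rows without a match held 0.158% and 0.155% of counts. No protein sequence was used.

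Members and lists were chosen with earlier results of these data known. Expected counts were rounded and tested per gene by an exact two-sided binomial test using TMM factors (edgeR 4.0.16), for every gene with 20 or more counts in all. No model with residual degrees of freedom exists for 1 library a side. The step was tested on simulated data. Copies were found with BLAST+ 2.17.0. Python 3.11.15, scipy 1.17.1, statsmodels 0.14.6 and R 4.3.3 were used. Floors cover counting error only.

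Genes named are the 10 highest and 8 lowest core genes, every paralog and parent, the 5 core genes with the largest library difference in each direction at a mean of at least 100 counts, all stalk, 5S and X-linked genes, the ubiquitin fusion genes except 1 that is not reported here, the 2 highest and the lowest of other lists, the 5 highest and 3 lowest Diamond-Blackfan genes, and those whose sequence is printed. The leading copies, Rps20, Rpl27, Eef1b2, Prtn3, Elane and the markers at 0 were chosen after seeing values. Alternatives tried were FPKM, posterior means, TPM without globin and mitochondrially encoded genes, GC adjustment in 20 bins, other scalings and count minimums, pseudocounts, counts not divided by length, and each replicate left out. Adding copies and using full length were chosen after seeing the data.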

Additional observations from a re-analysis of the deposited data

How the results depend on the processing

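Values here are means of the libraries. The core share of TPM, 8.21% ± 1.36 (SD, n = 2), was 11.3% when globin and mitochondrially encoded genes were left out of the total. The median core gene, 117 ± 32.6 TPM, was 162 TPM in that setting, 172 TPM after GC adjustment and 210 TPM with near-identical copies added. The paralog share of ribosomal protein TPM, 0.118% ± 0.0320, was 0.376% after GC adjustment. The number of core genes higher in replicate 2, 8, was 5 with library totals in place of TMM. Over all genes tested that number was 3020 with TMM and 2423 with library totals. The cause of these moves was not tested, apart from the smaller total, the added copies and the other scaling, which act by construction. The mean log2 ratio of Rps27l to Rps27, 2.22, was 4.09 in counts not divided by length. That of Rpl36al to Rpl36a, 0.11, was 0.093 with posterior mean TPM and 0.36 in counts not divided by length. That of Rpl3l to Rpl3, -7.96 from 4 and 6 counts, was -4.17 at a pseudocount of 1, -6.72 at 0.1 and -6.98 with posterior mean TPM. The ratios of Rpl39l and Rpl10l have no finite log2 value and have no alternatives. The other 59 alternative values moved by less than the spread between the libraries, or by under 1.5 times for counts, and none of the values above changed direction. Some of the 59 could not have moved further and are no check. Leaving out a library always moves a mean of 2 libraries by less than their SD. FPKM keeps the shares and ratios of TPM, and a minimum of 1 TPM removed no core gene from the median.

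Without replicate 1 and without replicate 2, in that order, the values were 7.25% and 9.16% for the core share, 94.0 and 140 TPM for the median, 38 and 43 genes at 100 TPM or more, and 0.0952% and 0.140% for the paralog share. The log2 ratios were 1.65 and 2.78 for Rps27l, 0.10 and 0.11 for Rpl36al, and -7.36 and -8.57 for Rpl3l. The library differences have no value without a library. No paired analysis was possible because the series has 1 group. With 2 libraries of 1 line, no spread between separate derivations is measured. Depth limits the low genes most: Rps27 had 108 and 80 counts, and Rpl29 156 and 148.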
